A study of Homo sapiens with 6 samples.

Results

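A set of 10 genes that make, break down, sense or store heme and iron was followed in OVCAR5 cells treated with SpiD7: HMOX1, HMOX2, BACH1, BLVRA, BLVRB, FTH1, FTL, TFRC, SLC40A1 and FECH. They are 10 of the 29982 gene symbols of the deposited table, and 9 of the 10 were among the 13287 genes with a mean of at least 1 FPKM over the libraries, the level required for testing. FPKM is the number of fragments per kilobase of transcript, scaled to the number of fragments mapped in the library, a level per length. HMOX1 was chosen because it was high after treatment, so its values are given as a description with no test, and the other 9 were chosen for their place in the same pathway.

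OVCAR5 is an established human cell line of ovarian cancer cells. SpiD7 is a spirocyclic dimer, a small molecule in which a linker joins a pair of reactive units that bind cysteines of proteins. RNA was sequenced from 2 libraries treated with the vehicle DMSO, 2 treated with 10 μM SpiD7 for 2 h, 1 for 6 h and 1 for 12 h. The labels give no duration for DMSO, do not say whether libraries of a group came from separate cultures, and describe 1 cell line with 1 vehicle control for all times, so the times share their controls and p-values measure only the spread between these libraries.

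The table holds a value of its own for the first DMSO and the first 2 h library. The columns named for replicate 2 were read as the authors' mean of both libraries of each of these groups, which the labels do not state. From these columns the other library was recovered (called recovered below), so its values are estimates that rest on this reading. The recovered DMSO library differed more than 2-fold from the first in 1792 genes (13.5%), being higher in 8.72% and lower in 4.77% of all genes, with BACH1 the single member among them, and the 2 h libraries differed by as much in 1453 genes (10.9%). Of the 1792 genes, 78.0% in the 6 h library and 57.7% in the 12 h library lay nearer to the first DMSO library. Each result is therefore given against the mean of the DMSO libraries and, where it matters, against each of them. Depth, read from the steps between low values, lay between 0.772 and 1.10 times that of the first DMSO library. Of 8 markers of epithelial and ovarian carcinoma cells 6 passed the level required, with EPCAM at 77.4 to 86.5 FPKM and PAX8 at 1.64 to 2.12 FPKM, whereas MUC16 and WT1 stayed under it. Of 5 leukocyte and macrophage markers 3 were tested, and their summed level was 30.5 to 44.1 FPKM in DMSO, 28.7 to 35.6 FPKM at 2 h, 31.5 FPKM at 6 h and 40.3 FPKM at 12 h, with PTPRC at most 0.032 FPKM, CD14 and LYZ 1.04 and 1.40 above the DMSO mean at 12 h on the log2 scale (adjusted p = 0.556 and 0.538 by limma) and CD68 at -0.18. The endothelial marker PECAM1 stood at 10.7 and 7.74 FPKM in the recovered DMSO and 2 h libraries and at 0.320 to 0.961 FPKM in the other 4. VWF and CDH5, the other listed endothelial markers, reached at most 0.086 and 0.725 FPKM and stayed under the level required. Of 5 fibroblast markers 2 were tested, with a summed level of 2.98 to 6.72 FPKM over all 5. The part of these markers in the results was not tested. Markers of red cell precursors, in which heme synthesis is most active, were near 0 in every library, with a summed level of 0 to 1.85 FPKM over 5 genes and none that passed the level required.

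Heme is a ring that holds iron. It is built in a chain of steps that starts with ALAS1 and ends with FECH, which inserts the iron. It is opened by the heme oxygenases, the inducible HMOX1 and the constitutive HMOX2. They release iron, carbon monoxide and biliverdin, which BLVRA reduces to bilirubin. BLVRB is a second biliverdin reductase. BACH1 is a repressor that sits with small MAF proteins on the HMOX1 gene and leaves when it binds heme, while NRF2 (NFE2L2) activates the same sites under stress from electrophiles and oxidants. Freed iron is stored in the ferritin shell of FTH1 and FTL chains, iron enters cells through the transferrin receptor TFRC, and SLC40A1 (ferroportin) is the only known exporter of iron ions from animal cells.

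Iron itself sets the use of several of these messages through iron-responsive elements, hairpins with an unpaired C and a loop that iron regulatory proteins bind when iron is scarce. Bound in the 5′ UTR they hold back translation, as in ferritin and ferroportin, and bound in the 3′ UTR of TFRC they protect the message from decay. The hairpins of the members were searched for in the transcripts of the reference annotation (GENCODE 29, GRCh38) as a C, 5 bases, CAGTGN with the last base not G, and 5 bases that pair with the 5 before the loop, G-T pairs included. They are printed because they separate the members whose RNA level iron can set directly, through decay (TFRC), from those in which the element acts on translation, which RNA sequencing does not measure. Capitals mark the unpaired C and the loop, and each is written 5′ to 3′ in the sense of the message.
FTH1, 5′ UTR, chr11:61967574-61967602, minus strand: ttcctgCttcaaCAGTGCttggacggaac
FTL, 5′ UTR, chr19:48965335-48965363, plus strand: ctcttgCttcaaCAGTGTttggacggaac
SLC40A1, 5′ UTR, chr2:189580661-189580689, minus strand: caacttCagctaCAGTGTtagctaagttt
TFRC, 3′ UTR, chr3:196050979-196051007, minus strand: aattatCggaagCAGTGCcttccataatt
TFRC, 3′ UTR, chr3:196050575-196050603, minus strand: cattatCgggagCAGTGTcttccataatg
TFRC, 3′ UTR, chr3:196050510-196050538, minus strand: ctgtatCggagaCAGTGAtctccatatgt
TFRC, 3′ UTR, chr3:196050463-196050491, minus strand: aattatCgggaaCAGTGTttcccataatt
The pattern was found in these 4 members and in none of the other 6, with every protein-coding transcript of a member searched. Over all coding genes only the longest transcript of each was searched, and 189 of 19669 (0.961%) held it. The 2 searches are therefore not alike, and the elements of FTL and SLC40A1 were each found in 1 transcript. A match to these letters is not proof that the hairpin is used, and the lack of one says only that these letters are not there.

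HMOX1 (chr22:35380361-35394214, plus strand) stood at 36.7 and 36.1 FPKM in the first and recovered DMSO libraries, at 244.8 and 354 FPKM in the 2 h libraries, at 773 FPKM at 6 h and at 529 FPKM at 12 h. Every treated library lay above both DMSO libraries, and 6 h was the highest of the 3 times. On the log2(FPKM + 0.1) scale, used for all log2 differences here, HMOX1 was higher than the DMSO mean by 3.01, 4.41 and 3.86 after 2, 6 and 12 h, which is 8.08-fold, 21.2-fold and 14.5-fold. The mean level was 36.4 ± 0.425 FPKM in DMSO and 299 ± 77.3 FPKM at 2 h (SD, n = 2 each).

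The DMSO libraries, which differed widely elsewhere, were 0.02 apart in HMOX1 on the log2 scale, and 95.8% of genes had a larger gap between them. The recovered value assumes that both libraries entered the mean with equal weight, and the size of this gap depends on that. The choice of control changed HMOX1 little, since against the recovered and the first library the differences were 4.42 and 4.39 at 6 h and 3.87 and 3.85 at 12 h, and 3.03 against the recovered library at 2 h. The 2 h libraries lay 0.53 apart, with the recovered one higher, and the 12 h library lay 0.55 below the 6 h library, a gap of the same size as that between the 2 h libraries. With 1 library at each of these times the step from 6 h to 12 h has no replicate check. Ranked by signed difference from the largest rise down, HMOX1 took place 71, 68 and 94 of 13287 genes after 2, 6 and 12 h. By its level it moved from place 2709 in DMSO to place 279, 167 and 212 after 2, 6 and 12 h.

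HMOX2 (chr16:4474690-4510347, plus strand), the constitutive oxygenase, stood at 29.7 and 20.9 FPKM in DMSO, 24.3 and 21.9 FPKM at 2 h, 25.6 FPKM at 6 h and 27.8 FPKM at 12 h. All treated libraries lay between the DMSO libraries. Its differences from the DMSO mean were -0.11 (SE 0.25) at 2 h, 0.03 (SE 0.31) at 6 h and 0.15 (SE 0.31) at 12 h, with adjusted p = 1.0, 0.998 and 0.915 in the limma fit over all genes. The ratio of HMOX1 to HMOX2 levels was 1.23 and 1.72 in the DMSO libraries, where the 2 oxygenases were expressed at like levels, 10.1 and 16.2 in the 2 h libraries, 30.2 in the 6 h library and 19.05 in the 12 h library. Exons of HMOX2 overlap those of NMRAL1 on the other strand (2.65 to 5.23 FPKM), and the library kit does not mark strand, so reads of the overlap cannot be assigned.

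**Figure D1:**
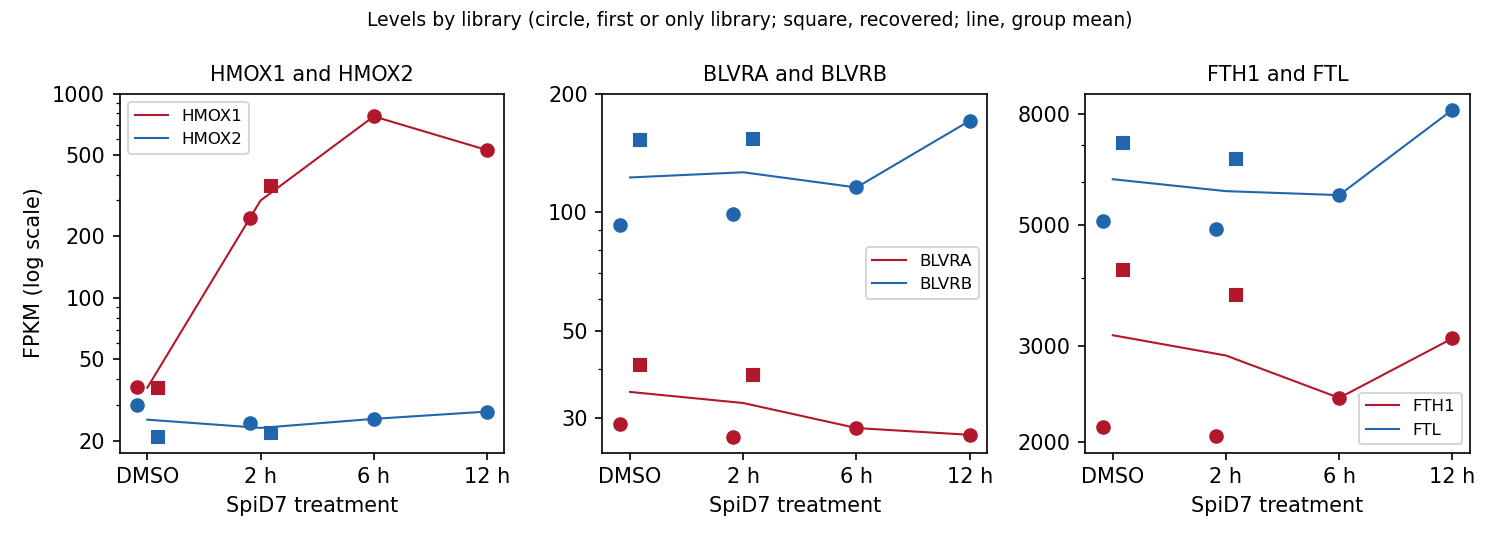
Levels in FPKM (log axes, different in each panel) by treatment for the heme oxygenases, the biliverdin reductases and the ferritin chains. Circles are first or only libraries, squares recovered ones and lines join group means. HMOX1 goes from 36.7 and 36.1 FPKM in DMSO to 773 FPKM at 6 h, while the other 5 genes stay in or near the range of their DMSO libraries, with BLVRB and FTL highest at 12 h.

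Among the genes kept for testing, HMOX1 was the single member more than 2-fold above the DMSO mean at each of the 3 times and none was more than 2-fold below it. Over all genes, 2.32% were that much higher at 2 h, 5.66% at 6 h and 6.48% at 12 h, and 0.662%, 3.1% and 3.76% that much lower, figures given as background only since HMOX1 was chosen from this contrast. Of the other 8 tested members, 0 were more than 2-fold away in either direction at any time, where 2.98%, 8.76% and 10.2% of all genes were at the 3 times. The same 8 had 0 calls at an adjusted p under 0.05 with a change over 2-fold in limma, against 0.0226%, 0.294% and 0.339% of all genes. At an unadjusted p under 0.05 they had 0 at each time, against 2.84%, 5.55% and 9.19% of all genes. Their lowest adjusted p was 1.0, 0.977 and 0.645 after 2, 6 and 12 h. Their median difference was -0.04, -0.06 and -0.14 at the 3 times, beside -0.01, 0.03 and -0.05 over all genes. The sign of this median turned with the control, since it was 0.23, 0.12 and 0.22 over the first DMSO library and -0.31, -0.39 and -0.48 when the recovered one was the control, where the medians of all genes were -0.01, -0.02 and -0.06, and 0.05, 0.08 and -0.0022. In this fit the lone 6 h and 12 h libraries were taken to vary like the replicated groups, and the SEs of the 8 members ran from 0.18 (TFRC at 2 h) to 1.05 (BACH1 at 6 h and 12 h).

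Of the 9 tested members, 1 lay above both DMSO libraries in all its libraries at 2 h, 1 at 6 h and 3 at 12 h (HMOX1, BLVRB and FTL), where 13.7%, 31.6% and 30.1% of all genes did. HMOX1, chosen for its rise, is in each of these counts, and without it they were 0, 0 and 2 of 8. Below both lay 0, 1 (BLVRA) and 3 (BLVRA, TFRC and FECH), where 8.1%, 29.2% and 35.6% of all genes did.

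**Figure D2:**
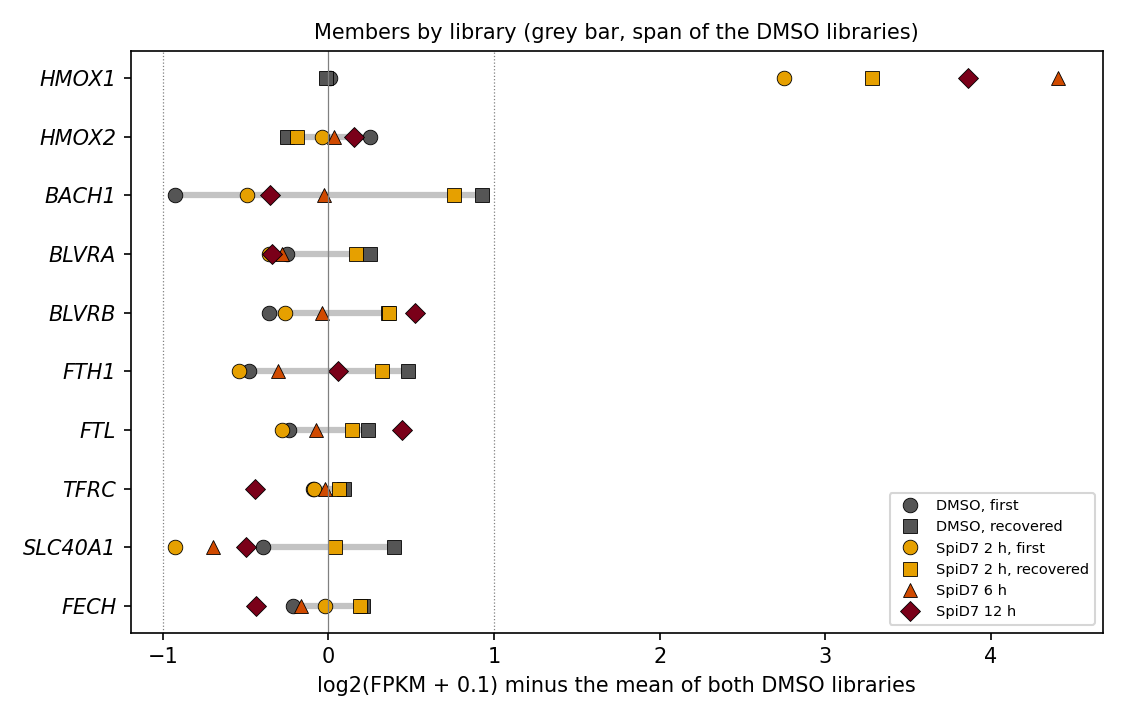
The 10 members by library, as the log2(FPKM + 0.1) value minus the mean of both DMSO libraries, with dotted lines at 2-fold. The grey bar spans the DMSO libraries. HMOX1 lies at 2.75 to 4.41 in the treated libraries and the other members lie within 1 of the DMSO mean.

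The biliverdin reductases were followed next. BLVRA (chr7:43758680-43807342, plus strand) stood at 28.9 and 40.9 FPKM in DMSO, 26.9 and 38.6 FPKM at 2 h, 28.3 FPKM at 6 h and 27.2 FPKM at 12 h. Its 6 h and 12 h libraries lay just below the lower DMSO library, with differences of -0.28 (SE 0.38) and -0.34 (SE 0.38) from the DMSO mean and adjusted p = 0.977 and 0.836 by limma. BLVRB (chr19:40447765-40465840, minus strand), which also reduces flavins, stood at 92.5 and 152 FPKM in DMSO, 99.1 and 153 FPKM at 2 h, 115 FPKM at 6 h and 171 FPKM at 12 h. Its 12 h library lay above both DMSO libraries, by 0.88 against the first and 0.16 against the recovered one, and the difference of 0.52 (SE 0.48) from their mean had an adjusted p of 0.804 by limma. The ratio of BLVRB to BLVRA was 3.20 and 3.72 in DMSO, 3.69 and 3.97 in the 2 h libraries, 4.08 in the 6 h library and 6.28 in the 12 h library, so that the 12 h library had the highest of the 6 ratios.

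BACH1 (chr21:29194071-29630751, plus strand), the heme-sensing repressor, stood at 4.69 and 17.2 FPKM in DMSO, 6.38 and 15.3 FPKM at 2 h, 8.83 FPKM at 6 h and 7.02 FPKM at 12 h. The treated libraries all lay between the DMSO libraries, which were 1.85 apart on the log2 scale, a gap that 3.61% of genes exceeded. The sign of every BACH1 difference depended on the control, with 1.06, 0.90 and 0.57 over the first DMSO library at 2 h, 6 h and 12 h, and -0.79, -0.95 and -1.28 when the recovered one was the control. Against the mean the differences were 0.13 (SE 0.86), -0.03 (SE 1.05) and -0.35 (SE 1.05), with adjusted p = 1.0, 1.0 and 0.948 by limma. No direction can be given for BACH1 from these libraries. BACH1 is a protein whose activity heme changes directly, and RNA levels do not measure that.

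The regulators that act with or against BACH1 gave no adjusted call either. Of 11 genes listed for heme sensing and for BACH1 and NRF2 control 10 were tested, BACH1 included, and their median difference was 0.13, 0.22 and -0.05 after 2, 6 and 12 h, with 0.14, 0.47 and 0.28 over the first DMSO library and 0.02, 0.02 and -0.03 over the recovered one. Above both DMSO libraries lay 1, 4 and 3 of the 10 at these times, where 13.7%, 31.6% and 30.1% of all genes did. Below both lay 1, 2 and 3, where 8.1%, 29.2% and 35.6% of all genes did. NFE2L2, which encodes NRF2, stood at 59.0 and 75.7 FPKM in DMSO, 73.8 and 72.7 FPKM at 2 h, 70.1 FPKM at 6 h and 58.5 FPKM at 12 h, so that its 12 h library lay just under both DMSO libraries and the others between them. MAFF, a small MAF partner, stood at 6.64 and 66.2 FPKM in DMSO, 52.9 and 94.6 FPKM at 2 h, 86.7 FPKM at 6 h and 77.1 FPKM at 12 h. Its 6 h and 12 h libraries lay above both DMSO libraries, but the recovered DMSO library lay above 1 of the 4 treated ones. MAFG, another small MAF, stood at 15.1 and 15.8 FPKM in DMSO and 18.4 and 25.2 FPKM at 2 h. At 6 h and 12 h MAFG stood at 24.2 and 22.4 FPKM, so that every treated library lay above both DMSO libraries. NR1D1 of the same list lay 1.12 and 1.21 above the DMSO mean at 6 h and 12 h, and above both DMSO libraries.

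Of 9 target genes of BACH1 and NRF2 outside iron handling, all were tested and 7 lay above both DMSO libraries at 6 h and 5 at 12 h, where 31.6% and 30.1% of all genes did. Their median difference was 0.30, 0.52 and 0.67 after 2, 6 and 12 h, and 0 of 9 had an adjusted p under 0.05 by limma at any time, with 1, 2 and 3 of 9 at an unadjusted p under 0.05, where 2.84%, 5.55% and 9.19% of all genes were. The median depended on the control, with 0.01, 0.36 and 0.27 over the first DMSO library and 0.39, 0.68 and 0.98 over the recovered one. OSGIN1, an oxidative stress induced growth inhibitor, stood at 13.2 and 11.7 FPKM in DMSO, 25.5 and 27.3 FPKM at 2 h, 37.8 FPKM at 6 h and 32.4 FPKM at 12 h. All its treated libraries lay above both DMSO libraries and 6 h was highest, as for HMOX1, with differences of 1.60 and 1.38 at 6 h and 12 h (adjusted p = 0.346 and 0.386 by limma). SRXN1, sulfiredoxin, which repairs overoxidised peroxiredoxins, stood at 60.1 and 40.3 FPKM in DMSO, 75.2 and 64.3 FPKM at 2 h, 149.5 FPKM at 6 h and 116 FPKM at 12 h. It too was above both DMSO libraries in each treated library and highest at 6 h, with differences of 1.60 and 1.24 (adjusted p = 0.654 and 0.497 by limma). NQO1, a quinone reductase of the same list, stood at 266 and 206 FPKM in DMSO, 260 and 198 FPKM at 2 h, 257 FPKM at 6 h and 235 FPKM at 12 h, with no treated library above both DMSO libraries.

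FTH1 (chr11:61959718-61967660, minus strand), the ferritin chain that oxidises iron, stood at 2132 and 4143 FPKM in DMSO, 2046 and 3712 FPKM at 2 h, 2407 FPKM at 6 h and 3095 FPKM at 12 h. The DMSO libraries were 0.96 apart on the log2 scale, and the 6 h and 12 h libraries lay between them. Its differences from the DMSO mean were -0.11 (SE 0.51), -0.30 (SE 0.63) and 0.06 (SE 0.63), with adjusted p = 1.0, 0.977 and 0.990 by limma, and at 12 h it was 0.54 above the first and 0.42 below the recovered DMSO library. FTL (chr19:48965301-48966878, plus strand), the chain that helps build the iron core, stood at 5077 and 7062 FPKM in DMSO, 4922 and 6619.5 FPKM at 2 h, 5675 FPKM at 6 h and 8139.9 FPKM at 12 h. The 12 h library was the highest of the 6, by 0.68 and 0.20 over the first and recovered DMSO libraries, and its difference of 0.44 (SE 0.35) from their mean had an adjusted p of 0.773 by limma. FTL and FTH1 were the most abundant members per length in every library, and together they held 0.826% to 1.17% of the FPKM total.

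Both ferritin chains have many processed copies in the genome, 25 named for FTH1 and 16 for FTL in the annotation, of which 2 and 1 have a row in the table, at no more than 0.997 FPKM (FTH1P3). Where reads that fit several copies were placed is not known, so the ferritin levels are uncertain to that extent. An exon of FTH1 also overlaps BEST1 on the other strand, which stood at 0.101 to 1.21 FPKM. Of 6 genes listed for iron storage and ferritin delivery 5 were tested, with 0 at an adjusted or an unadjusted p under 0.05 by limma. At an unadjusted p under 0.05 were 2.84%, 5.55% and 9.19% of all genes after 2, 6 and 12 h. The median difference of the 5 was -0.07, -0.08 and 0.06 at these times. Over the first DMSO library the median was 0.17, 0.16 and 0.39, and over the recovered one -0.02, -0.08 and -0.06. NCOA4, which carries ferritin to lysosomes for breakdown, stood at 42.4 and 58.0 FPKM in DMSO and at 51.5 to 65.6 FPKM in the treated libraries, with its 6 h and 12 h libraries inside the DMSO range.

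TFRC (chr3:196027183-196082189, minus strand) is the member whose message carries the 4 hairpins of the 3′ UTR printed above. It stood at 274 and 311 FPKM in DMSO, 275 and 306 FPKM at 2 h, 288 FPKM at 6 h and 215 FPKM at 12 h. The 2 h and 6 h libraries lay within the DMSO range, and the 12 h library was the lowest of the 6. At 12 h it lay 0.35 below the first and 0.54 below the recovered DMSO library, and the difference of -0.45 (SE 0.22) from their mean had an adjusted p of 0.645 by limma, the lowest among the tested members other than HMOX1. The differences at 2 h and 6 h were -0.01 (SE 0.18) and -0.02 (SE 0.22), with adjusted p = 1.0 at both times.

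SLC40A1 (chr2:189560579-189583758, minus strand), the iron exporter, stood at 0.739 and 1.35 FPKM in DMSO, 0.482 and 1.04 FPKM at 2 h, 0.582 FPKM at 6 h and 0.681 FPKM at 12 h. Its mean of 0.812 FPKM was under the level required, so it was not tested. The 6 h and 12 h libraries lay below both DMSO libraries, and at 2 h 1 of 2 did. Of the 4 genes listed for iron export, CP (ceruloplasmin, a copper enzyme that oxidises exported iron) was the single one tested. CP stood at 7.54 and 34.3 FPKM in DMSO, 5.93 and 32.3 FPKM at 2 h, 5.20 FPKM at 6 h and 4.21 FPKM at 12 h, values that set the recovered libraries apart from the 4 others more than they set treatment apart from DMSO.

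Of 14 genes listed for iron uptake, TFRC included, 9 were tested, and 6 of them lay below both DMSO libraries at 12 h, beside 35.6% of all genes. The median difference of the list was -0.06, -0.02 and -0.70 after 2, 6 and 12 h, and at 12 h it was -0.21 with the first DMSO library as control and -0.57 with the recovered one. None of the 9 had an adjusted or an unadjusted p under 0.05 by limma at any time. An unadjusted one was held by 2.84%, 5.55% and 9.19% of all genes after 2, 6 and 12 h. LCN2 (lipocalin, which binds iron carriers of bacteria) had the lowest difference of the list at 12 h, and was chosen after its values were seen. It stood at 93.5 and 933 FPKM in DMSO, 85.1 and 811 FPKM at 2 h, 101 FPKM at 6 h and 84.3 FPKM at 12 h, with the recovered libraries again apart from the others.

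FECH (chr18:57548283-57586772, minus strand), which closes heme synthesis, stood at 2.16 and 2.93 FPKM in DMSO, 2.48 and 2.89 FPKM at 2 h, 2.23 FPKM at 6 h and 1.83 FPKM at 12 h. The 12 h library was the lowest of the 6 and the others lay within the DMSO range. Its difference of -0.44 (SE 0.29) from the DMSO mean at 12 h had an adjusted p of 0.723 by limma.

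The other enzymes of heme synthesis lay on the same side as FECH at 12 h, apart from the first enzyme of the chain. Of 9 listed genes 8 were tested, and 7 of the 8 lay below both DMSO libraries at 12 h, beside 35.6% of all genes. The list had a median difference of -0.04, -0.05 and -0.43 after 2, 6 and 12 h, and at 12 h it was -0.42 with the first DMSO library as control and -0.44 with the recovered one, and its size did not hinge on the choice of control. The 8 genes had 0 at an adjusted p under 0.05 by limma at any time. At an unadjusted p under 0.05 they had 0 at 2 h and 6 h and 1 at 12 h, where 2.84%, 5.55% and 9.19% of all genes were. That 1 was ALAS1, the rate-limiting first enzyme in most cells, whose synthesis and stability heme is known to hold down. ALAS1 stood at 29.2 and 24.99 FPKM in DMSO, 32.7 and 28.4 FPKM at 2 h, 33.5 FPKM at 6 h and 53.8 FPKM at 12 h. Its 6 h and 12 h libraries lay above both DMSO libraries, and the difference of 0.99 at 12 h had an adjusted p of 0.471 by limma. PPOX, the enzyme before FECH, stood at 2.87 and 4.14 FPKM in DMSO, 3.96 and 3.87 FPKM at 2 h, 3.55 FPKM at 6 h and 1.96 FPKM at 12 h, and had the lowest difference of the list at 12 h (-0.79, adjusted p = 0.578 by limma). ALAS1 and PPOX, like NFE2L2, MAFF, MAFG, NR1D1, NQO1 and NCOA4 above, were chosen after their values were seen.

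**Figure D3:**
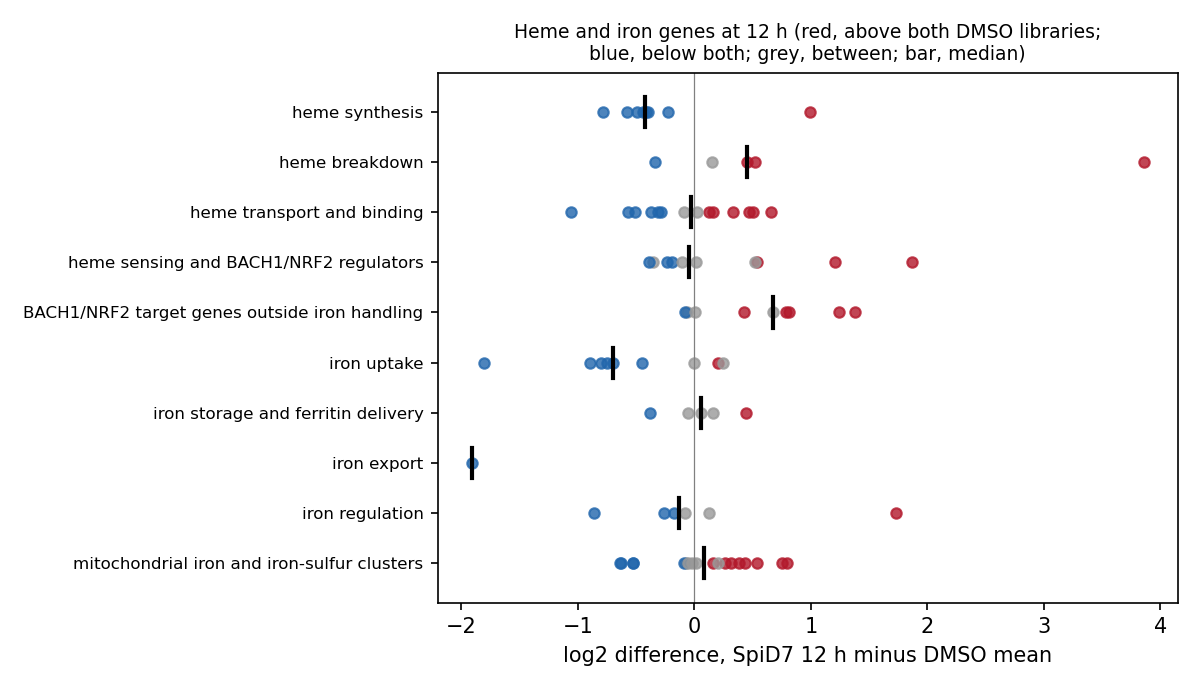
Differences at 12 h from the mean of both DMSO libraries on the log2 scale, 1 point for each tested gene of 10 lists (the 9 tested members included), with a bar at the list median. Points are red above both DMSO libraries, blue below both and grey between. HMOX1 stands alone at 3.86, and 7 of 8 genes of heme synthesis are below both DMSO libraries with ALAS1 above.

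Over the 10 lists, 90 genes besides the members were examined and 76 were tested. More than 2-fold above the DMSO mean were 2, 5 and 5 after 2, 6 and 12 h, where 2.32%, 5.66% and 6.48% of all genes were, and more than 2-fold below it 0, 3 and 3, where 0.662%, 3.1% and 3.76% were. Against each DMSO library singly these counts came down to 0, 2 and 2 above, where 1.23%, 3.21% and 3.88% of all genes were, and to 0 below at every time, where 0.226%, 0.61% and 0.993% were. None of the 76 had an adjusted p under 0.05 by limma at any time, and 1, 2 and 7 had an unadjusted p under 0.05, where 2.84%, 5.55% and 9.19% of all genes did. Their median difference was -0.03, 0.10 and -0.04 at the 3 times.

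The medians of the remaining lists lay between -0.13 and 0.45. The 5 genes of heme breakdown, 4 of them members, had a median of -0.03, -0.04 and 0.45 after 2, 6 and 12 h. With the first DMSO library as control it was 0.35, 0.19 and 0.84, and with the recovered one -0.30, -0.40 and 0.16. Of 15 genes for heme transport and binding 14 were tested, with a median of -0.10, 0.08 and -0.03 at the 3 times, and at 12 h 6 lay above and 6 below both DMSO libraries, where 30.1% and 35.6% of all genes did. The 18 genes of mitochondrial iron and iron-sulfur clusters were all tested, with a median of 0.01, 0.02 and 0.09, and at 12 h 8 lay above and 5 below both DMSO libraries, beside the same shares of all genes. Of 9 genes for iron regulation 6 were tested, with a median of -0.01, 0.05 and -0.13. At 12 h 1 of the 6 lay above and 3 below both DMSO libraries, beside the same shares of all genes. At an unadjusted p under 0.05 by limma were 2 of the 6 at 12 h, where 9.19% of all genes were. At 12 h the medians with the first and the recovered DMSO library as control were -0.05 and -0.01 for heme transport, 0.02 and 0.25 for mitochondrial iron, and -0.22 and 0.03 for iron regulation. Among the genes of iron regulation BMP6, a growth factor that raises hepcidin in the liver, stood at 1.24 and 0.734 FPKM in DMSO, 0.785 and 0.760 FPKM at 2 h, 1.98 FPKM at 6 h and 3.42 FPKM at 12 h. Its 6 h and 12 h libraries lay above both DMSO libraries, and the difference of 1.73 at 12 h had an adjusted p of 0.467 by limma. HFE of the same list, chosen after its values were seen, went the other way. At 12 h HFE lay below both DMSO libraries, with a difference of -0.87 from their mean (adjusted p = 0.540 by limma).

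The genes with a pattern most like HMOX1 were sought over the 6 libraries, as the smallest Euclidean distance between log2 values centred on each gene's mean. The 5 nearest of all tested genes were HSPA1L at a distance of 0.656, NAALAD2 at 0.695, GADD45G at 0.898, DNAJB1 at 0.910 and LSMEM1 at 0.975, while the other 8 tested members lay at 4.17 (BLVRB) to 4.63 (BACH1). Counted from the nearest tested gene, BLVRB and BACH1 held places 3547 and 10071, so distances of this size were common among all genes. HSPA1L, an HSP70 chaperone, stood at 0.580 and 0.641 FPKM in DMSO, 5.52 and 9.48 FPKM at 2 h, 12.9 FPKM at 6 h and 8.19 FPKM at 12 h, so that it too was highest at 6 h. DNAJB1, a J-domain cochaperone of HSP70, stood at 106 and 127 FPKM in DMSO, 519.6 and 621 FPKM at 2 h, 1414 FPKM at 6 h and 1513 FPKM at 12 h, and was highest at 12 h. GADD45G, a stress-induced growth arrest gene, stood at 0.161 and 0.180 FPKM in DMSO, 1.74 and 1.88 FPKM at 2 h, 5.51 FPKM at 6 h and 6.78 FPKM at 12 h. All treated libraries of these 3 genes lay above both DMSO libraries. The points of this comparison are 6 libraries that share their controls, and the rule picks genes by the pattern itself, so the likeness is a description.

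**Figure D4:**
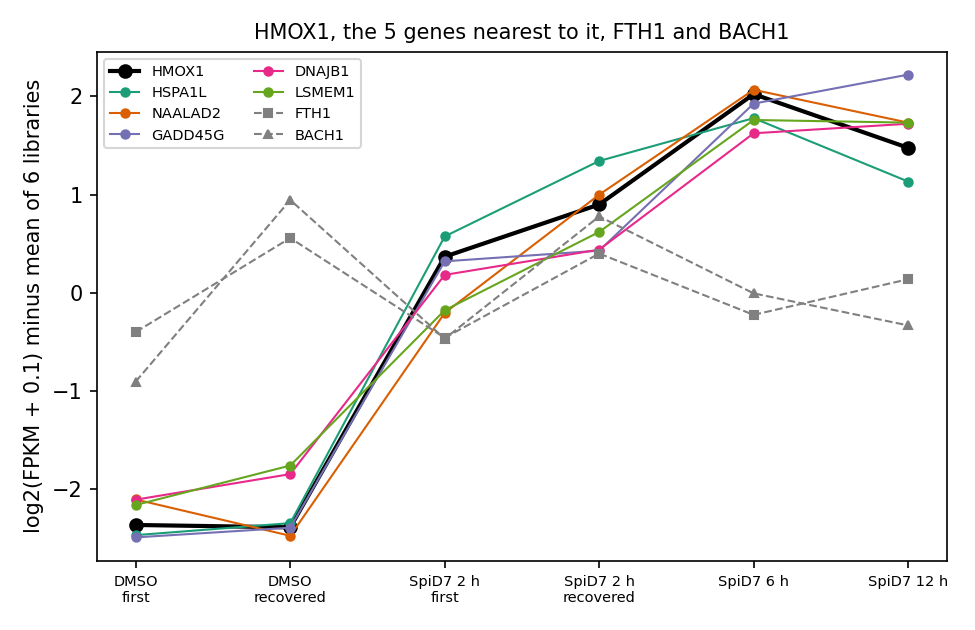
HMOX1, the 5 genes nearest to it, and FTH1 and BACH1 (dashed) over the 6 libraries, as log2(FPKM + 0.1) minus the mean of the 6 libraries. Lines join the values of a gene. On this scale the 5 genes follow HMOX1 within distances of 0.656 to 0.975, while FTH1 and BACH1 are highest in the recovered DMSO library.

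Windows of 250 bases before to 50 after the gene start (RefSeq, GRCh38.p14) were searched on both strands for 4 motifs. The core of the antioxidant response element, TGACNNNGC, was in 13.3% of all 35116 windows and among the members in FECH. The AP-1 element TGAGTCA was in 4.95% of windows and among the members in BACH1. A part of the MAF recognition element, TGC followed directly by the AP-1 letters, was in 0.154% of windows. The heat shock element, searched as GAA, TTC and GAA with 2 free bases between, was in 0.490%. Neither was in a window of a member. The sites are shown to place these elements near the members, with the matched letters in capitals, each written on its gene's strand. In FECH the motif itself reads on the opposite strand.
FECH, chr18:57586722-57586750, minus strand: ccgggagggcGCGAGGTCAgggggctggg
BACH1, chr21:29298864-29298890, plus strand: gcggaaggagTGAGTCAcctgaccgct
The BACH1 site was in 1 of its 3 windows. HMOX1 and FTH1 were not among the windows examined.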

How the data were processed

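The RNA of 6 OVCAR5 libraries was sequenced (DMSO, n = 2; SpiD7 2 h, n = 2; 6 h and 12 h, n = 1 each). By the submitters' processing notes and the methods, the authors used Trim Galore, TopHat2 2.0.8 and Cufflinks and Cuffdiff 2.1.1. The methods name a mouse build, whereas the notes also name hg38, on which the deposited loci of all 10 members fall. The authors deposited FPKM values for 4 comparisons, each scaled on its own by Cuffdiff, with their log2 fold changes, p-values and q-values, which were not used. Columns of values without a sample or group numbered 0.

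The columns of the second comparison, named for replicate 2, were read as the authors' means of both libraries of a group, since 0 of 18195 rows above 0 in the first DMSO library, and 0 of 18722 for 2 h, were at 0 there. Replicate 2 was recovered by subtracting the share of the first library (0.526 for DMSO from 186 rows, 0.509 for 2 h from 226 rows) and dividing by it, so its values are estimates on the scale of the first library. The 6 h and 12 h columns were divided by 0.972 and 0.994 to match the shared DMSO column.

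Rows of a symbol were summed. Values were tested as log2(FPKM + 0.1), a scale that understates changes of low genes, with limma 3.58.1 in R 4.3.3 over the 13287 genes with a mean of at least 1 FPKM, 4 groups and Benjamini-Hochberg adjustment, and the fit was tested on simulated data. A call needs an adjusted p under 0.05 and a change over 2-fold. The fit with the replicate number as a block, 3 pseudocounts, filters, scalings and left-out libraries were compared. Named were all members, up to 3 genes of a list more than 2-fold from each DMSO library at 6 h or 12 h, and the 5 genes nearest to HMOX1, and exceptions are marked in the text. Members and lists were chosen with earlier results of these data known. FPKM values carry no counts, so no counting intervals are given, and only relative depth (0.772 to 1.10) could be read.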

Additional observations from a re-analysis of the deposited data

How the results depend on the processing

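HMOX1 stayed between 2.75 and 3.28 at 2 h, 4.39 and 4.42 at 6 h, and 3.85 and 3.87 at 12 h when each replicate was left out, and between 2.97 and 3.02, 4.35 and 4.41, and 3.83 and 3.91 under the other settings. The calls over all genes moved more. At 2 h the 3 calls became 1 with a pseudocount of 1, with upper-quartile scaling or with an intensity trend, 6 with a pseudocount of 0.01, and 0 with no filter on low values (limma, 1198 genes at an unadjusted p under 0.05). With no filter the 39 calls at 6 h became 96 and the 45 at 12 h became 263, and the cause was not tested. With the replicate number as a block, DMSO and 2 h only, 0 genes were called (limma, 1874 at an unadjusted p under 0.05), and HMOX1 stayed at 3.01. The labels do not say that a number marks a shared day, and same-numbered libraries deviated together with a correlation of 0.369 over genes. Leaving out each replicate gave 0 to 21 calls at 2 h (0 without the first 2 h library, with 202 genes at an unadjusted p under 0.05), 22 to 47 at 6 h and 26 to 51 at 12 h. Members more than 2-fold from DMSO became 2 at 2 h without the recovered DMSO library and 2 at 12 h without the first, with BACH1 as the added one, and otherwise stayed at 1. HMOX2 at 6 h turned to -0.018 with median-ratio scaling and -0.0066 with upper-quartile scaling. Read at 2 h from the columns taken as the authors' group means, BACH1 turned from 0.13 to -0.06 and BLVRB from 0.05 to -0.0028. List medians near 0 also turned sign under another filter or scaling, the widest being iron regulation at 6 h, from 0.05 to -0.22 with a mean of at least 5 FPKM.

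Several small differences turned sign when a replicate was left out, mostly a DMSO library. At 2 h the ranges were -0.37 to 0.14 for HMOX2, -0.79 to 1.06 for BACH1, -0.36 to 0.17 for BLVRA, -0.30 to 0.41 for BLVRB, -0.59 to 0.37 for FTH1, -0.31 to 0.17 for FTL, -0.10 to 0.082 for TFRC, -0.12 to 0.30 for FECH and -0.62 to 0.065 for BMP6. At 6 h they were -0.22 to 0.29 for HMOX2, -0.95 to 0.90 for BACH1, -0.40 to 0.32 for BLVRB, -0.78 to 0.17 for FTH1, -0.32 to 0.16 for FTL, -0.11 to 0.072 for TFRC and -0.38 to 0.045 for FECH. At 12 h they were -0.10 to 0.40 for HMOX2, -1.28 to 0.57 for BACH1 and -0.42 to 0.54 for FTH1. At 12 h BLVRA, BLVRB, FTL, TFRC and FECH kept their sign without either DMSO library, which restates that they lay above or below both. The lone 6 h and 12 h libraries were not left out. The calls of GADD45G (adjusted p = 0.0278 at 6 h and 0.0185 at 12 h by limma) were lost with a pseudocount of 1, with an intensity trend and when any 1 of the replicates was left out.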

Other observations

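The ratio of FTH1 to FTL set the recovered libraries apart from the other 4. It was 0.420 and 0.416 in the first DMSO and 2 h libraries, 0.424 in the 6 h and 0.380 in the 12 h library, and 0.587 and 0.561 in the recovered DMSO and 2 h libraries. The summed ferritin level was 7209 and 11205 FPKM in DMSO, 6968 and 10332 FPKM at 2 h, 8082 FPKM at 6 h and 11235 FPKM at 12 h, so the 12 h library was as high as the recovered DMSO library while its ratio was the lowest of the 6. The share of the FPKM total held by MIR6723 was 25.04% and 21.8% in the recovered libraries and 5.04% to 9.19% in the other 4, and its part in the ferritin values was not tested.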
